A study of Mus musculus with 401 samples.

Results

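Imprinted genes are expressed from 1 parental copy in many tissues, because a methylation mark set in the egg or the sperm keeps the other copy silent. The 37 mouse genes described here were chosen by name, as established imprinted genes, and their rows were found by Ensembl identifier among 43633 genes counted. All 37 had a row in both deposited sets of RNA sequencing libraries. Of these genes, 17 are known as maternally expressed and 20 as paternally expressed. The grouping is textbook knowledge from somatic tissues and placenta, and in several of these genes imprinting holds in some tissues only. The reads carry no measure here of which copy was transcribed, so every value below is the sum of both alleles.

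Maternal methylation imprints are laid down while the oocyte grows, after the marks inherited from the parents of the female have been erased. A fully grown oocyte therefore carries the maternal kind of mark on both of its copies, whereas its cumulus cells, which are somatic, keep 1 copy of each kind. Many imprinted genes act on fetal growth, the placenta and metabolism, and they lie in clusters in which a methylated control region governs neighbouring coding genes and long non-coding RNAs.

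Single oocytes at the germinal vesicle stage and the pool of cumulus cells around each of them were taken from fully grown follicles of B6D2F1 (C57BL/6 x DBA/2) female mice and sequenced by RamDA-seq, which copies total RNA over the full length of transcripts. In the first set, the groups were young mice at 2 months, middle mice at 9 months and old mice at 14 months, fed ad libitum, and mice under adult-onset calorie restriction (CR) at 9 months, all after injection of equine chorionic gonadotropin or CARD HyperOva for hyperovulation. The second set held mice of 2, 4, 9 and 14 months with hyperovulation and mice of 2 months without it, all without CR. The 399 libraries analysed came from 11 mouse labels in the first set, 1 of which joined 2 old mice, and from 30 in the second set.

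Total counts ranged from 559305 to 4536690 per oocyte library and from 510029 to 2501005 per cumulus library. All 12 oocyte markers were higher in oocytes and all 10 cumulus markers were higher in cumulus cells, in both sets. The CR libraries were deeper, with a median of 3578882 counts in oocytes against 2332126 in middle oocytes and of 2019007 in cumulus cells against 1091806 in middle cumulus cells. Diet and any difference in how these libraries were made cannot be told apart. In the first set, 6 old, 3 CR, 2 middle and 1 young oocyte libraries had high levels of luteal or cumulus markers, and results that rest on them are also given without them. The marker genes of cumulus cells summed to a median of 190 CPM (counts scaled to the library total, and for the imprinted genes further normalised by the TMM method) in middle, 178 CPM in CR, 127 CPM in young and 391 CPM in old oocytes.

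Promoters are shown for Peg3 and Meg3, which hold the motif marked below and lie in clusters that changed under CR or hyperovulation. No promoter of the Peg10 cluster, which also changed, is shown. Whether the motif is more common in clusters that changed was not tested. Each run holds 250 bases before and 50 bases after the start site in RefSeq on GRCm38.p6, and the capitals mark a cyclic AMP response element, TGACGTCA, which reads the same on both strands. The Peg3 promoter is chr7:6730370-6730669 on the minus strand, the motif begins 178 bases before the start site, and 61.3% of its bases are G or C. The Meg3 promoter is chr12:109540746-109541045 on the plus strand, the motif begins 57 bases before the start site, and 53.7% of its bases are G or C.
Peg3: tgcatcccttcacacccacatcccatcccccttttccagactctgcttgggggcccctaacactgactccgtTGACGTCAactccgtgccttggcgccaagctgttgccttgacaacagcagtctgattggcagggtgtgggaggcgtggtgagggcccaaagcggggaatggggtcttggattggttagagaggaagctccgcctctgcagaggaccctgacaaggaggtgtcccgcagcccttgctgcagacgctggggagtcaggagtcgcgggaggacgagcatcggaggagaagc
Meg3: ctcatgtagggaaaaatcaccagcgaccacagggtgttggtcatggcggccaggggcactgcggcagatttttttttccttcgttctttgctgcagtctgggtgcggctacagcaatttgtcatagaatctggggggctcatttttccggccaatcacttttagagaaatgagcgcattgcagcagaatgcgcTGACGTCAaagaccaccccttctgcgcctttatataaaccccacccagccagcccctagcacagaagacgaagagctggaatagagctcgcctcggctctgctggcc

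The 30 imprinted genes found in the RefSeq table had 47 promoter windows. The element was found in 3 of these windows (6.38%), those of Meg3, Peg3 and Usp29, and in 1.79% of all 32851 windows searched. The Usp29 promoter runs the other way and shares 263 bases with that of Peg3, so it holds the same copy of the motif. The letters TGCCGC, the core bound by the imprint keeper ZFP57 when methylated, were searched on both strands, do not overlap the element and were found in 11 of the 47 windows (23.4%), which belong to 10 imprinted genes, and in 11.6% of all windows. The genes include Meg3, Mest, Grb10, Plagl1 and Nnat. These matches describe the letters in a window and are no measure of binding.

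The levels of most imprinted genes differed between oocytes and cumulus cells, as did those of 88.4% of all genes tested at 2 months. Between genes, levels were compared as RPKM (reads scaled to gene length and to the total of the library), and the range over the 24 libraries of a cell type at 2 months follows the median. In oocytes the highest level was that of Mest, a hydrolase family gene expressed from the paternal copy, with a median of 59.9 RPKM (49.1 to 80.4). It was followed by Igf2r, the receptor that clears the growth factor IGF2, with 21.7 RPKM (13.2 to 28.7) and by Copg2, a subunit of the COPI vesicle coat, with 19.3 RPKM (15 to 24.3). The ranges of Igf2r and Copg2 overlapped, and both lay below that of Mest. Gnas, the alpha subunit of the stimulatory G protein, had 10.3 RPKM (7.03 to 12.5), the potassium channel gene Kcnq1 9.14 RPKM (6.46 to 11.4) and Grb10, an adaptor that dampens insulin signalling, 8.78 RPKM (6.42 to 10.4). These 3 genes overlapped each other in range.

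In cumulus cells the highest level was that of Nap1l5, a nucleosome assembly protein relative that arose as a retrogene, with a median of 187 RPKM (43.0 to 262). The long non-coding RNA Rian, which hosts small nucleolar RNAs, had 52.5 RPKM (5.88 to 73.7). Plagl1, a zinc finger transcription factor that restrains growth, had 37.4 RPKM (27.9 to 52.9) and Igf2r 34 RPKM (22.8 to 45.7). Below them stood Gnas with 24.7 RPKM, the endoplasmic reticulum proteolipid gene Nnat with 20.5 RPKM, the long non-coding RNA Meg3 with 18.3 RPKM and Impact, an inhibitor of the amino acid sensing kinase GCN2, with 17.7 RPKM. The ranges of Rian and Meg3 were wide among cumulus pools, down to 5.88 and 3.09 RPKM, whereas Plagl1 and Igf2r varied less.

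**Figure D1:**
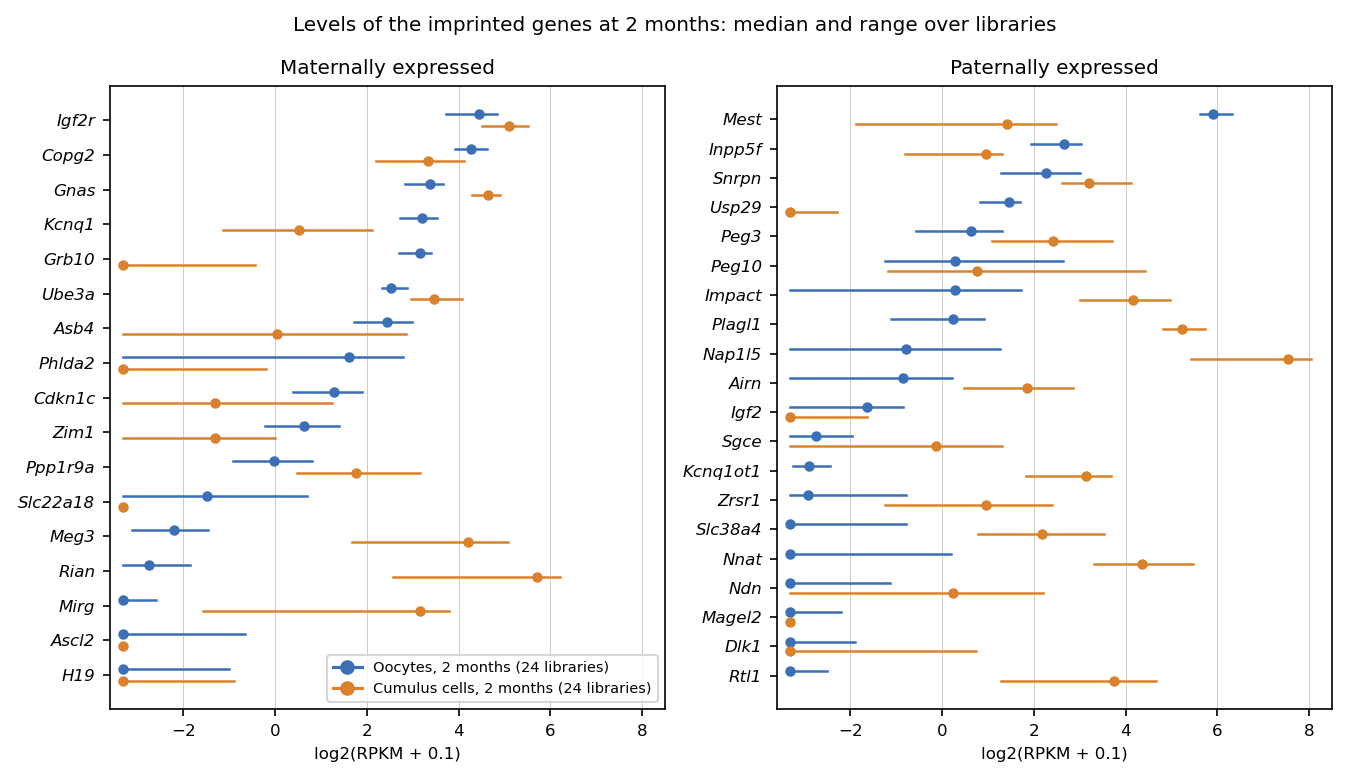
Levels of the 37 imprinted genes at 2 months with hyperovulation, as log2(RPKM + 0.1), with maternally and paternally expressed genes in separate panels; points are medians and bars the range over 24 oocyte libraries (blue) and 24 cumulus libraries (orange). Mest stands highest in oocytes at 59.9 RPKM and Nap1l5 in cumulus cells at 187 RPKM, and the bars of Rian, Rtl1 and Kcnq1ot1 do not touch between the cell types.

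At 2 months, 18 of the 37 genes had a count in all 24 oocyte libraries and 22 in all 24 cumulus libraries. No gene was without a count in oocytes, and Slc22a18, Ascl2 and Magel2 had none in the cumulus libraries. H19, a long non-coding RNA that is abundant in fetal tissues, had 2 counts over all 2-month oocytes and 1 over the cumulus libraries. Ascl2, a placental transcription factor, had 6 counts in oocytes and Magel2 had 1. Low values of H19, Ascl2 and Magel2 were at the limit of detection at this depth and allow no statement that these genes are silent. Dlk1, the paternally expressed signalling gene of the Meg3 cluster, was also sparse, with 6 counts in oocytes and 21 in cumulus libraries.

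Of 34 imprinted genes tested between the cell types at 2 months, 34 differed, where 88.4% of all genes tested did. The number higher in oocytes was 12 (42.3% of all genes were called in this direction) and the number higher in cumulus cells 22 (46.1%). Maternally expressed genes were split, with 8 higher in oocytes and 7 in cumulus cells, and of the paternally expressed genes 4 were higher in oocytes and 15 in cumulus cells. The median difference over the imprinted genes, oocytes minus cumulus cells, was -1.21 on the log2 scale against -0.16 over all genes, and DESeq2 moved the latter to -0.40. In young mice of the first set, 32 of 34 differed (85.6% of all genes), 12 higher in oocytes and 20 in cumulus cells.

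Genes of oocytes included members of 5 clusters. Usp29, a deubiquitinase family gene next to Peg3, had a median of 2.66 RPKM in oocytes (1.68 to 3.17) and a total of 3 counts over all 24 cumulus libraries against 2416 in the oocytes. The ratio of counts, each over the total of its group, was 321 (95% exact binomial interval 110 to 1557, counting error only). Grb10 was 118-fold higher in oocytes (log2 difference 6.88, SE 0.18, edgeR adjusted p = 2.29e-41) and Mest 30.5-fold (4.93, SE 0.12, adjusted p = 4.01e-42). Phlda2, which limits placental growth, had 161 counts in oocytes and 1 in cumulus libraries, a ratio of 64.1 (interval 11.3 to 2549). The fetal growth factor gene Igf2 had 69 counts against 1, a ratio of 27.5 (4.77 to 1101), and Slc22a18, a transporter gene, 28 against 0, at least 3.72-fold higher with a floor of 3 counts over the cumulus group.

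Kcnq1 (7.64-fold), Zim1 (6.48-fold), Cdkn1c (6.29-fold), the phosphoinositide phosphatase gene Inpp5f (4.55-fold), Asb4 (3.82-fold) and Copg2 (2.37-fold) were likewise higher in oocytes. Cdkn1c encodes a cyclin-dependent kinase inhibitor, Zim1 a zinc finger protein, and Asb4 a protein with ankyrin repeats and a SOCS box.

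The 3 largest differences toward cumulus cells were those of Rian, Rtl1 and Mirg in the Dlk1-Meg3 cluster. Mirg, a host transcript of microRNAs, had 1 count over all 2-month oocytes and 1151 over the cumulus libraries, a ratio of 2889 (518 to 114225), and Rtl1, a retrotransposon-derived gene needed in the placenta, had 2 against 1670, a ratio of 2096 (579 to 17323). Rian was 594-fold (log2 difference -9.21, SE 0.27) and Meg3 120-fold (-6.90, SE 0.26) higher in cumulus cells. Nap1l5 (187-fold), Kcnq1ot1 (183-fold), Nnat (127-fold), the amino acid transporter gene Slc38a4 (42.8-fold), Plagl1 (27.2-fold) and Impact (11.6-fold) were likewise higher in cumulus cells, as was Dlk1 (4.62-fold), whose call was lost without 1 of the 5 mice. Kcnq1ot1 is known as the non-coding RNA that silences its neighbours on the paternal copy. It was low in oocytes, and its neighbours Kcnq1, Cdkn1c, Phlda2 and Slc22a18 were higher there than in cumulus cells. Ascl2 had too few counts to test. Any link between the level of Kcnq1ot1 and those of its neighbours was not tested. Igf2r (1.26-fold), Snrpn (1.43-fold), Ube3a (1.57-fold), Peg10 (1.87-fold) and Gnas (1.91-fold) differed least, all higher in cumulus cells.

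Counting did not use strand, so antisense and overlapping genes were not separated. Rtl1 lies on the minus strand within the region of the plus-strand transcripts Meg3, Rian and Mirg, and reads from an antisense RNA over it cannot be told from its own. Mest and Copg2 overlap tail to tail by 912 exonic bases, 23.1% of the exonic bases of Mest and 17.8% of those of Copg2. Igf2 shares 62.8% of its exonic bases with Gm49394, Cdkn1c 30.7% with Gm44732, Snrpn 27.3% with Gm38393 and Usp29 14.3% with Zim3, and these genes are uncertain to that extent.

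The effect of CR on the imprinted genes was read between middle and CR mice, both at 9 months. In oocytes, 16 of 36 imprinted genes changed, where 30% of all genes tested did. The 9 that rose (15.8% of all genes) were Peg3, Usp29, Zim1, Impact, Cdkn1c, Asb4, Mest, Copg2 and Inpp5f, and the 7 that fell (14.2% of all genes) were Phlda2, Grb10, Nnat, Mirg, Rian, Rtl1 and Dlk1. Maternally expressed genes rose in 4 and fell in 4 of 16 cases, and paternally expressed genes rose in 5 and fell in 3 of 20. The median change was 0.13 on the log2 scale against 0.00 over all genes. With counts summed per mouse, 4 middle and 3 CR mice, 6 imprinted genes were called (8.51% of all genes), namely Peg3, Usp29, Zim1 and Impact, which rose, and Phlda2 and Mirg, which fell. Of these, Mirg was near the limit of detection in many oocytes, so its call rests on low counts.

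All 3 genes of the Peg3 cluster on chromosome 7 rose in CR oocytes. Zim1 (6671269 to 6696450, minus strand), Peg3 (6703892 to 6730431, minus strand) and Usp29 (6730578 to 6967219, plus strand) lie side by side on GRCm38, and Zim1 is known as maternally and the other two as paternally expressed. Peg3, a zinc finger protein gene, had a median of 21.4 CPM in middle oocytes (6.69 to 34.5, n = 14) and of 39.9 CPM in CR oocytes (23.3 to 82, n = 27). The means of the 4 middle mice were 24.1, 19.3, 33.3 and 20.1 CPM and those of the 3 CR mice 46.7, 46.4 and 39.7 CPM. Every CR mouse stood above every middle mouse, and single oocytes overlapped. Here and below, the share of all genes whose mouse means lay apart was not counted, so such separation describes single genes only. The change was 2.01-fold (log2 1.01, SE 0.16, edgeR adjusted p = 2.19e-06, and 0.00755 with counts summed per mouse).

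Zim1 had a median of 11.8 CPM in middle (7.23 to 22.1) and 25.6 CPM in CR oocytes (15.6 to 42.5). Mouse means were 16.8, 10.9, 11.9 and 14 CPM in middle mice and 30.8, 24 and 27.3 CPM in CR mice. The groups of mice did not overlap, and the change was 2-fold (log2 1.0, SE 0.15, adjusted p = 6.06e-07, per mouse 0.00635). Usp29 had a median of 46 CPM in middle (32.3 to 62.7) and 71.2 CPM in CR oocytes (48.8 to 101), with mouse means of 42.1, 47.4, 62.7 and 46.4 against 77.6, 74.3 and 68.3 CPM. The third middle mouse, with a single oocyte, came nearest to the CR mice. The change of Usp29 was 1.52-fold (log2 0.61, SE 0.08, adjusted p = 8.28e-08, per mouse 0.0179).

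Impact, on chromosome 18 and outside any other cluster studied here, had a median of 5.04 CPM in middle (2.16 to 9.21) and 10.1 CPM in CR oocytes (6.03 to 23.4). Mouse means were 7.53, 4.64, 2.38 and 5.32 CPM in middle mice and 15.1, 11.2 and 10.7 CPM in CR mice, again without overlap. The change was 2.16-fold (log2 1.11, SE 0.19, adjusted p = 1.10e-05, per mouse 0.0163). Peg3, Zim1, Usp29 and Impact kept their calls when any of the 7 mice was left out. Medians of Peg3 were 14.3 to 20.4 CPM in the other 7 groups of oocytes, and no comparison of age or hyperovulation called any of these 4 genes in oocytes.

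**Figure D2:**
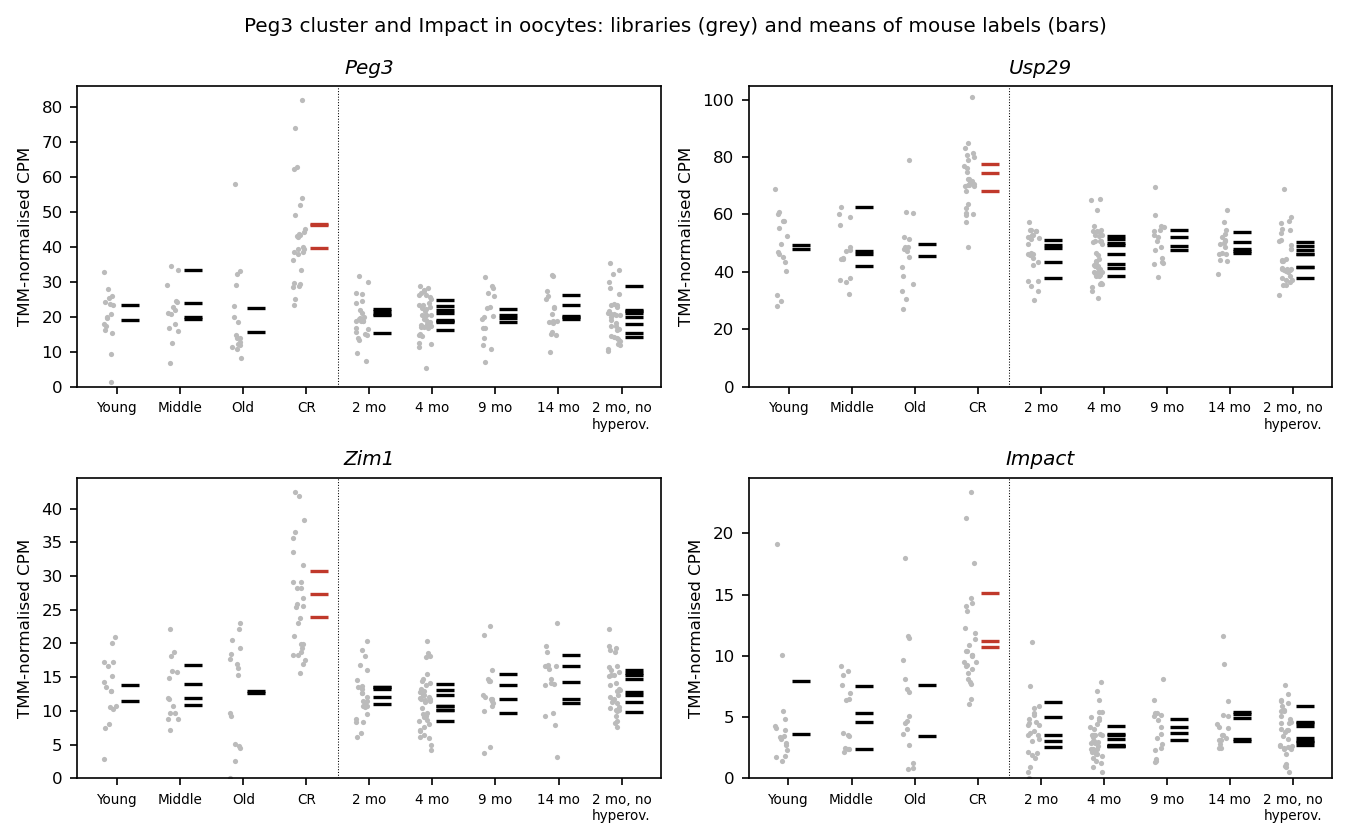
Peg3, Usp29, Zim1 and Impact in single oocytes of 9 groups, in CPM. Grey points are libraries and bars are means of mouse labels, red for CR and black for all other groups. The CR mice lie above all 4 middle mice in each panel, for Peg3 at 39.7 to 46.7 CPM against 19.3 to 33.3 CPM.

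Among the other genes that rose in CR oocytes, Inpp5f went from a median of 52.5 CPM (37.1 to 77.1) to 71.8 CPM (49.3 to 92.2), 1.36-fold (SE of the log2 change 0.09, adjusted p = 7.65e-05). Cdkn1c went from 3.02 CPM (1.43 to 8.34) to 5.49 CPM (2.87 to 10.4), 1.65-fold (adjusted p = 0.00276). Mouse means of Inpp5f, Cdkn1c and Mest did not overlap between middle and CR mice, and how many of all genes did so was not counted. The increases of Mest (1.13-fold), Copg2 (1.18-fold) and Asb4 (1.36-fold) were small, and with all deposited libraries Mest was not called. None of the increases of Inpp5f, Cdkn1c, Mest, Copg2 and Asb4 passed with counts summed per mouse (adjusted p = 0.0626 to 0.27).

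Phlda2 and Grb10 fell in CR oocytes. Phlda2 had a median of 2.98 CPM in middle (0.439 to 8.08) and 1.12 CPM in CR oocytes (0 to 3.09), with mouse means of 1.65, 3.39, 8.08 and 3.78 against 0.75, 1.28 and 1.34 CPM. No CR mouse reached the lowest middle mouse, and the decrease was 2.70-fold (log2 change -1.43, SE 0.29, adjusted p = 0.000121, per mouse 0.0457). Grb10 had mouse means of 72.8, 73.4, 81.8 and 78.7 CPM in middle mice and 60.3, 60.9 and 58.2 CPM in CR mice, a 1.26-fold decrease (log2 change -0.34, SE 0.08, adjusted p = 0.000801, per mouse 0.0922). With all deposited libraries Grb10 was not called.

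Nnat, Mirg, Rian, Rtl1 and Dlk1 were near the limit of detection in many oocytes and far higher in cumulus cells. Rian had a median of 6.02 CPM in middle (0 to 53.7) and 3.01 CPM in CR oocytes (0 to 30.1), and its mouse means of 24.2, 14.1, 0 and 11.9 CPM overlapped with 2.72, 5.27 and 4.84 CPM in CR mice. Its log2 change was -1.56 (SE 0.48, adjusted p = 0.0098), or -1.14 with the cumulus marker share as a covariate. Without each mouse in turn, the log2 change of Mirg ran from -2.83 to -2.30 and that of Nnat from -2.90 to -2.25. Both kept their calls in these fits, and Nnat was not called with counts summed per mouse. Dlk1 had 7 counts over the middle oocytes and 1 over the deeper CR oocytes, a ratio of 21.1 with an interval of 2.71 to 951. Rtl1 (log2 change -1.85, SE 0.70, adjusted p = 0.0403) was not called by DESeq2 or without any 1 of 5 of the 7 mice. Without the 5 middle and CR oocytes high in luteal or cumulus markers, all 16 calls in oocytes held and Ndn and Meg3 were added. Gene by gene, 5 of 5 luteal markers and 4 of 6 theca and stroma markers were lower in CR than in middle oocytes. The median sums were not lower in CR. Luteal markers summed to a median of 8.73 CPM in middle (1.12 to 1470) and 9.09 CPM in CR oocytes (1.89 to 99.4). Theca and stroma markers summed to 1.93 CPM (0 to 76) and 3.45 CPM (0.326 to 12.6). The part of these markers in the decreases of Nnat, Mirg, Rian, Rtl1 and Dlk1 was not tested.

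In cumulus cells, CR changed 7 of 31 imprinted genes, where 3.6% of all genes tested were called. Peg3 and Ndn rose (2.06% of all genes rose), and Meg3, Rian, Mirg, Rtl1 and Nnat fell (1.53%). Counts summed per mouse gave no call among these genes (10 of 31 at an unadjusted p under 0.05, edgeR) and none among all genes (0%, 2043 at an unadjusted p under 0.05), whereas DESeq2 on libraries called 7 imprinted genes and 4.12% of all genes. In such pools of cells, fewer cells of a kind and less RNA per cell cannot be told apart. Cumulus markers summed to a median of 7180 CPM in middle and 6960 CPM in CR cumulus cells.

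The transcripts of the Dlk1-Meg3 cluster on chromosome 12 were lower under CR. Rian (109603940 to 109661716, plus strand) had a median of 709 CPM in middle (104 to 983, n = 15) and 213 CPM in CR cumulus cells (31.2 to 513, n = 25). Mouse means were 756, 670, 718 and 410 CPM in middle mice and 168, 178 and 312 CPM in CR mice. No CR mouse reached the lowest middle mouse, and the decrease was 2.55-fold (log2 change -1.35, SE 0.27, adjusted p = 0.00168, per mouse 0.171).

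Meg3 (109541001 to 109571726, plus strand) had mouse means of 218, 250, 391 and 144 CPM in middle mice and 53.6, 91.4 and 125 CPM in CR mice, a 2.14-fold decrease (log2 change -1.10, SE 0.27, adjusted p = 0.014). Mirg had 52.2, 44.9, 76.2 and 18.6 CPM against 14.1, 13.4 and 17.6 CPM (2.68-fold, adjusted p = 0.0015). Rtl1 had 61.1, 49, 129 and 26 CPM against 13.6, 15.6 and 23 CPM (2.68-fold, adjusted p = 0.00719). For each of these transcripts the fourth middle mouse was lowest among the middle mice and still above the CR mice. Meg3 lost its call without the second middle mouse or the second CR mouse, and Rtl1 without the second CR mouse. Dlk1, the other coding gene of the cluster, had a log2 change of -1.70 (SE 0.65, adjusted p = 0.142).

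**Figure D3:**
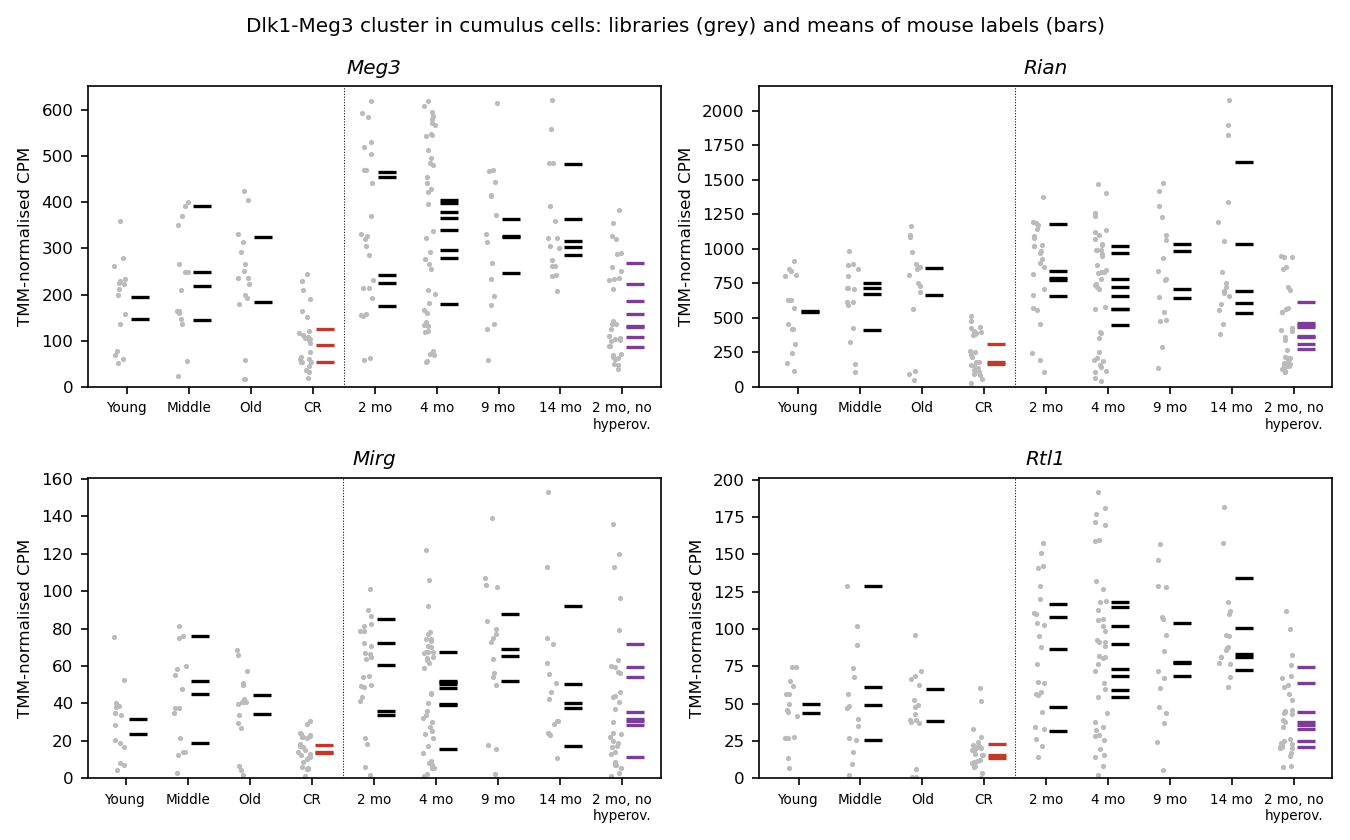
Meg3, Rian, Mirg and Rtl1 in cumulus cells of 9 groups, in CPM; grey points are libraries, bars are means of mouse labels, CR is red and 2 months without hyperovulation purple. Among mice of 9 months in the first set, Rian lies at 168 to 312 CPM under CR and at 410 to 756 CPM without it, and at 2 months at 272 to 618 CPM without and 655 to 1184 CPM with hyperovulation.

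Peg3 rose in CR cumulus cells as well as in oocytes. Its median was 39 CPM in middle (16.9 to 57.2) and 87.4 CPM in CR cumulus cells (51.7 to 182), with mouse means of 50, 32.6, 39 and 32.9 against 72.9, 110 and 85 CPM. The mice did not overlap, and the increase was 2.45-fold (log2 1.29, SE 0.18, adjusted p = 8.86e-06, per mouse 0.171). Ndn, the gene of the MAGE family protein necdin, had mouse means of 2.34, 3.16, 0 and 6.07 CPM in middle mice and 15.7, 17.9 and 11.8 CPM in CR mice, a 4.03-fold increase (adjusted p = 2.54e-05, per mouse 0.32). Peg3 and Ndn kept their calls when any of the 7 mice was left out. Nnat had mouse means that overlapped (24.7, 55.5, 32.7 and 38.8 against 16.6, 19.2 and 26.6 CPM), and its decrease (log2 change -0.86, SE 0.25, adjusted p = 0.0447) was lost without any 1 of 4 mice. Impact, which rose in CR oocytes, had a log2 change of -0.06 in cumulus cells (95% interval -0.36 to 0.25).

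**Figure D4:**
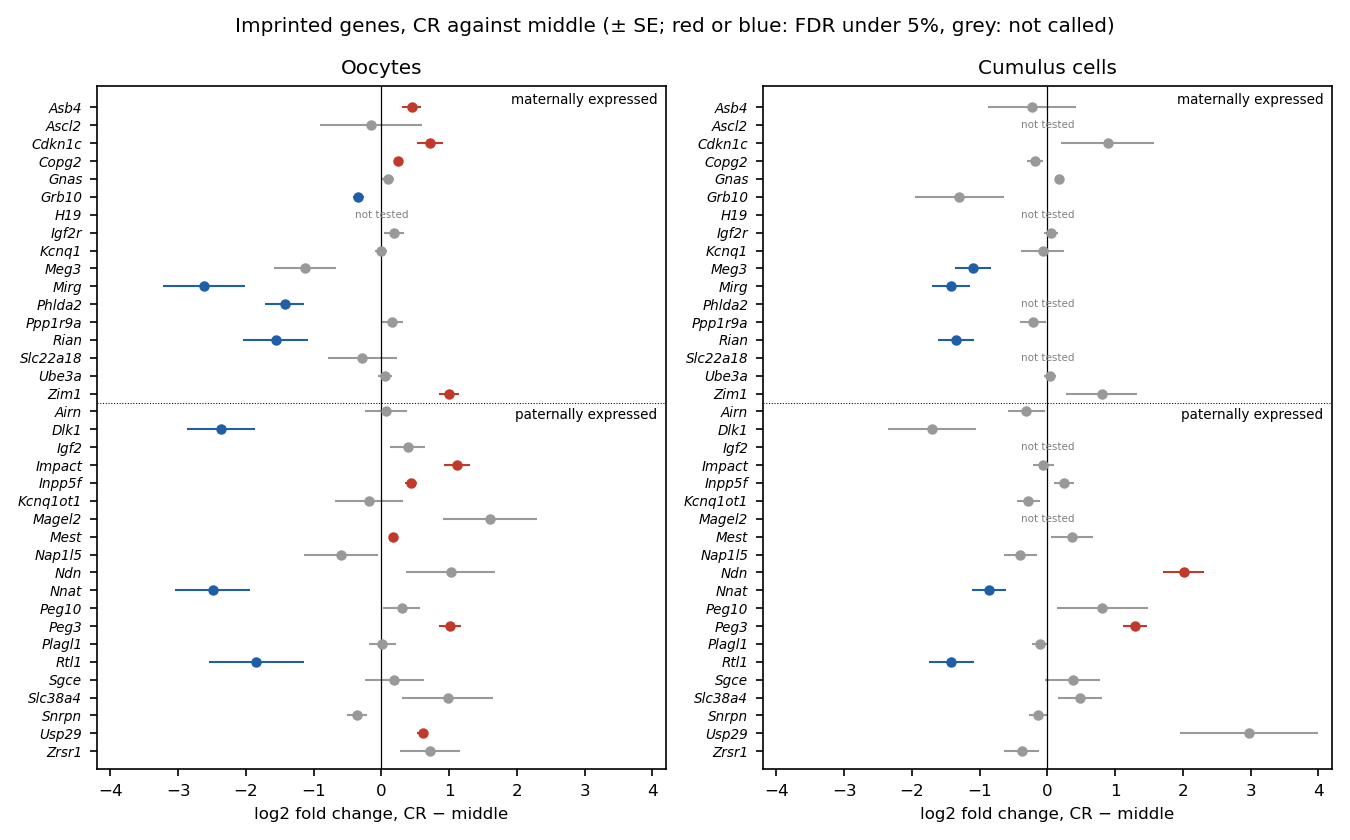
Log2 fold change of each imprinted gene tested from middle to CR mice, in oocytes (left) and cumulus cells (right); bars are 1 SE, red marks genes that rose, blue genes that fell and grey genes that did not pass the test (edgeR, adjusted p under 5%). Peg3 stands to the right in both panels, at 1.01 in oocytes and 1.29 in cumulus cells, and Impact stands at 1.11 in oocytes and at -0.06 in cumulus cells.

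The response to CR was compared between the cell types with an interaction term, which called 3 of 36 imprinted genes (12.7% of all genes tested). Impact responded more in oocytes, by 1.06 on the log2 scale (SE 0.25, adjusted p = 0.0015). Nnat (-1.68) and Usp29 (-2.53) were called at adjusted p of 0.0462 and 0.0495, the former in oocytes and the latter in cumulus cells from counts near 0, and each of these calls was lost without any 1 of 5 of the 7 mice. DESeq2 did not call Usp29. For Peg3 the interaction was not called. The median term over all genes was -0.13, or 0.20 with counts summed per mouse, which called 0 of 36.

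Hyperovulation was compared at 2 months, in 8 mice without it and 5 mice with it. In oocytes it changed 0 of 33 imprinted genes, and 0.0299% of all genes tested, with 3 imprinted genes at an unadjusted p under 0.05 and none called by DESeq2. In cumulus cells it changed 11 of 32, where 13.2% of all genes were called. Igf2r, Meg3, Rian, Rtl1 and Nap1l5 rose (6.16% of all genes rose), and Kcnq1ot1, Peg10, Ppp1r9a, Asb4, Plagl1 and Impact fell (7.01% of all genes fell). Maternally expressed genes rose in 3 and fell in 2 of 14 cases, and paternally expressed genes rose in 2 and fell in 4 of 18. Summed over all maternally expressed genes, the median library went from 1498 CPM (1116 to 2378) to 2253 CPM (1259 to 2876). Over all paternally expressed genes it went from 2064 CPM (1624 to 2844) to 1730 CPM (1135 to 2124). Both are given as descriptions. Such sums follow the most abundant genes, and the maternal sum includes Rian and Meg3, described below. With counts summed per mouse, Rian, Plagl1 and Ppp1r9a were called (0.952% of all genes).

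Rian had a median of 352 CPM without (104 to 945, n = 32) and 946 CPM with hyperovulation (105 to 1375, n = 24). Mouse means ran from 272 to 618 CPM in the 8 mice without and were 1184, 786, 838, 771 and 655 CPM in the 5 mice with it. The mice did not overlap, although single libraries did, and the increase was 2.07-fold (log2 1.05, SE 0.23, adjusted p = 0.00108, per mouse 0.0167). Meg3 went from a median of 118 CPM (37.6 to 384) to 323 CPM (58.8 to 620), 2.10-fold (SE 0.23, adjusted p = 0.000689), and Rtl1 from 38.6 CPM (7.89 to 112) to 82.5 CPM (14.5 to 158), 1.98-fold (adjusted p = 0.0013). Mouse means of Meg3 and Rtl1 overlapped, and both calls were lost without the mouse that gave 8 of the 24 libraries. Mirg had a log2 change of 0.51 (95% interval -0.05 to 1.08).

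Plagl1 fell with hyperovulation. Its median was 485 CPM without (258 to 809) and 285 CPM with it (221 to 396), and mouse means were 406 to 659 CPM without and 292, 277, 294, 332 and 303 CPM with it. The groups of mice lay apart, and the decrease was 1.68-fold (log2 change -0.75, SE 0.09, adjusted p = 6.35e-08, per mouse 0.0173). In oocytes the change of Plagl1 was -0.13 (95% interval -0.39 to 0.12).

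In the cluster on chromosome 6 that holds Peg10, 3 of 4 genes fell with hyperovulation. Ppp1r9a, the gene of the actin-binding phosphatase targeting protein neurabin, went from a median of 89.3 CPM (36.5 to 171) to 46.7 CPM (18.7 to 125), 1.93-fold lower (log2 change -0.95, SE 0.15, adjusted p = 1.87e-05, per mouse 0.025). Peg10, a retrotransposon-derived gene essential in the placenta, went from 58.6 CPM (2.36 to 214) to 10.6 CPM (2.29 to 139), 3.01-fold lower (adjusted p = 0.00136), and Asb4 from 10.8 CPM (0 to 94.4) to 3.6 CPM (0 to 28.4), 3.49-fold lower (adjusted p = 0.00218). Libraries of both groups spanned a wide range for Peg10 and Asb4, and the mouse means of Ppp1r9a, Peg10 and Asb4 overlapped. Sgce, the gene of epsilon-sarcoglycan beside Peg10, had a log2 change of -0.67 (SE 0.26, adjusted p = 0.0739).

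Impact fell from a median of 97.6 CPM (24.2 to 177) to 59.8 CPM (26.8 to 106), 1.70-fold (adjusted p = 8.01e-05), and Kcnq1ot1 fell by 0.28 on the log2 scale (SE 0.09, adjusted p = 0.0256). Nap1l5 rose from 197 CPM (46.7 to 507) to 332 CPM (77.4 to 493), 1.53-fold (adjusted p = 0.0116), and Igf2r by 0.25 on the log2 scale (SE 0.08, adjusted p = 0.0269). The call of Kcnq1ot1 was lost without any 1 of 5 mice, that of Igf2r without any 1 of 4 and that of Nap1l5 without the mouse that gave 8 of the 24 libraries. Cumulus markers summed to a median of 4980 CPM without and 7250 CPM with hyperovulation, 4 of 10 of them rose, and luteal markers summed to 88.5 CPM without and 161 CPM with it. Their part in the changes of the imprinted genes was not tested.

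**Figure D5:**
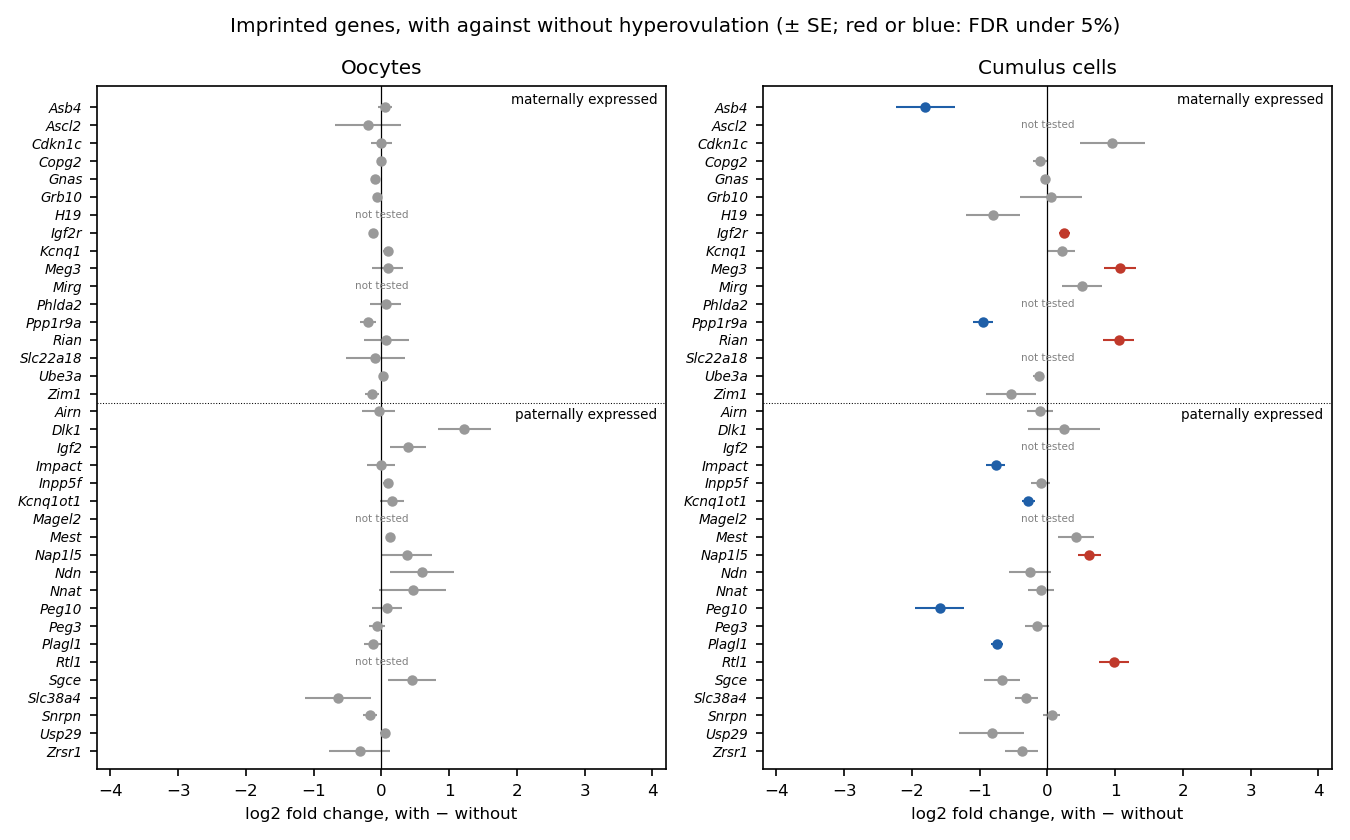
Log2 fold change of each imprinted gene tested from mice without to mice with hyperovulation at 2 months, in oocytes (left) and cumulus cells (right); bars are 1 SE, red marks genes that rose, blue genes that fell and grey genes that did not pass the test (edgeR, adjusted p under 5%). All 33 genes in oocytes are grey, and in cumulus cells Meg3 at 1.07 and Asb4 at -1.80 are the largest changes called in each direction.

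The response to hyperovulation differed between the cell types in 5 of 36 imprinted genes (4.05% of all genes tested). Asb4 (1.84, SE 0.40, adjusted p = 0.00133), Peg10 (1.65, SE 0.44, adjusted p = 0.0116), Ppp1r9a (0.75, SE 0.20, adjusted p = 0.014) and Plagl1 (0.61, SE 0.16, adjusted p = 0.0117) were more positive in oocytes, where the change was near 0, and Igf2r (-0.37, SE 0.10, adjusted p = 0.0098) was more negative in oocytes. For Meg3 the term was -0.98 (SE 0.47, adjusted p = 0.298).

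Age had few calls among the imprinted genes. In oocytes no imprinted gene was called by edgeR between young and middle mice (0 of 35, 0% of all genes, 3 at an unadjusted p under 0.05), between 2 and 4 months (0 of 33, 0.0126%, 2), between 2 and 9 months (0 of 32, 0.16%, 4) or between 2 and 14 months (0 of 33, 1.14%, 2), and DESeq2 called none in any of these. Between young and old mice, 1 of 34 was called (7.39% of all genes, with a median change of 0.11 over all genes). This was Nnat, with a median of 0.182 CPM in young (0 to 2.83) and 1.75 CPM in old oocytes (0 to 32.4) and mouse means of 0.848 and 0.474 against 5.08 and 1.46 CPM (log2 change 2.85, SE 0.72, adjusted p = 0.0236). Without the oocyte libraries high in luteal or cumulus markers the change of Nnat was 1.48 (adjusted p = 0.209), and it was not called per mouse (adjusted p = 0.553) or with the cumulus marker share as a covariate. The summed level of the paternally expressed genes in oocytes lay between medians of 376 and 437 CPM in all groups without CR and at 509 CPM with CR. Single oocytes overlapped, at 334 to 565 CPM in middle and 463 to 582 CPM in CR. For the maternally expressed genes, the medians were 651 to 799 CPM without CR and 793 CPM with CR. These sums are descriptions, and 3 paternally expressed genes fell under CR.

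In cumulus cells, 4 of 31 imprinted genes fell between young and old mice, where 3.96% of all genes were called and 2.19% fell. Peg3 had mouse means of 96.9 and 60.9 CPM in young and 42.3 and 34.2 CPM in old mice (log2 change -0.76, SE 0.22, adjusted p = 0.0378). Slc38a4 had 25.5 and 23.6 CPM against 12.3 and 12.6 CPM (-0.93, SE 0.23, adjusted p = 0.0166). Asb4 had 2.93 and 8.24 CPM against 1.36 and 0.89 CPM (-2.45, SE 0.50, adjusted p = 0.00298), and Impact 69.5 and 76.4 CPM against 53.5 and 46 CPM (-0.54, SE 0.16, adjusted p = 0.0486). With 2 mouse labels in each group, none of these 4 genes passed per mouse (adjusted p = 0.0738 to 0.224). Each call was lost without at least 2 of the 4 labels. Between young and middle mice, 0 of 31 were called by edgeR (1.46% of all genes, 6 at an unadjusted p under 0.05), and DESeq2 called Peg3, Slc38a4 and Airn (2.22% of all genes).

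In the second set, Slc38a4 fell in cumulus cells between 2 and 9 months, from a median of 17.2 CPM (6.47 to 44) to 9.56 CPM (0 to 15.7). Mouse means were 17.5, 15.2, 18.3, 13.3 and 29 CPM at 2 months and 8.18, 10.8, 7.81 and 9.89 CPM at 9 months, with no overlap (log2 change -1.01, SE 0.22, adjusted p = 0.00976, per mouse 0.182). At 14 months its change from 2 months was -0.76 (SE 0.22, adjusted p = 0.0631). Igf2r rose between 2 and 9 months, with mouse means of 349, 338, 310, 303 and 315 CPM against 349, 514, 397 and 496 CPM (log2 change 0.46, SE 0.10, adjusted p = 0.0108), and by 0.29 between 2 and 14 months (SE 0.08, adjusted p = 0.0492). The call of Igf2r at 9 months held in 7 of 9 fits that each left out 1 mouse. Its call at 14 months was lost without any 1 of 8 of the 10 mice.

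Ppp1r9a rose between 2 and 4 months (0.74, SE 0.18, adjusted p = 0.0342) and between 2 and 9 months (0.99, SE 0.24, adjusted p = 0.0205). Without the 9-month library that was high in luteal markers, the latter change was 0.65 (adjusted p = 0.106). Asb4 fell between 2 and 14 months (-2.13, SE 0.55, adjusted p = 0.0304). The calls of Ppp1r9a were lost without any 1 of 7 of the 13 mice at 4 months and any 1 of 4 of the 9 at 9 months, and that of Asb4 without any 1 of 5 of the 10. These comparisons, which share the 2-month libraries, called 1 of 31, 3 of 30 and 2 of 30 imprinted genes (0.519%, 1.92% and 1.7% of all genes tested) at 4, 9 and 14 months, and none with counts summed per mouse. In cumulus cells of the second set Peg3 had a log2 change of -0.49 at 4 months (adjusted p = 0.166), -0.72 at 9 months (adjusted p = 0.0652) and -0.41 at 14 months (adjusted p = 0.364).

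Over the 14 comparisons of age, diet and hyperovulation, 25 imprinted genes were called at least once by edgeR over libraries and 12 never. Among all genes tested, CR in oocytes alone called 30% and hyperovulation in cumulus cells 13.2%. The share of all genes called at least once was not counted, so the 25 are no result about imprinted genes as a set. The 12 were H19, Igf2, Kcnq1, Slc22a18, Ascl2, Airn, Snrpn, Magel2, Ube3a, Sgce, Gnas and Zrsr1. DESeq2 called 4 of these 12 in 1 comparison each, Snrpn in CR oocytes and, in cumulus cells, Airn between young and middle mice, Gnas between young and old mice and Sgce with hyperovulation. The 12 include Gnas, Ube3a, the E3 ubiquitin ligase gene, and Kcnq1, which were well measured in oocytes, beside Airn, the non-coding RNA antisense to Igf2r, and the splicing factor retrogene Zrsr1. Snrpn, which encodes a spliceosome protein, had a log2 change of -0.36 in CR oocytes (SE 0.15, adjusted p = 0.0638).

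Transcripts of the Dlk1-Meg3 cluster also moved together among cumulus libraries of one group. Group means were subtracted from log2(CPM + 1). The Pearson correlation of Meg3 and Rian over libraries was then 0.89 in the first set (n = 71) and 0.86 in the second (n = 128). That of Meg3 and Rtl1 was 0.92 and 0.88. Strand was not used, so reads from an antisense RNA over Rtl1 may enter its values. Over the same libraries, Mirg correlated with Rian at 0.90 and 0.86. These libraries share mice and normalisation, and the values are descriptions. In oocytes, Mest and Copg2, which share 912 exonic bases, had a Pearson correlation of 0.71 in the first set (n = 73) and 0.11 in the second (n = 127). Their Spearman correlation was 0.42 and 0.12.

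A further list of 37 imprinted genes and 9 keepers of imprints was counted beside these. In CR oocytes, 8 of 28 further imprinted genes were called, with Slc22a3 and Zim3 higher and 6 lower, against 30% of all genes tested (15.8% higher and 14.2% lower). Zim3 shares exonic bases with Usp29. Of the keepers, Zfp445 and Dppa3 rose and Zfp57 fell. In CR cumulus cells, 1 of 24 further imprinted genes (Dhcr7) and 1 of 7 keepers (Uhrf1) rose, where 3.6% of all genes were called and 2.06% rose. With hyperovulation, 6 of 24 further imprinted genes were called in cumulus cells, 5 higher and 1 lower, and 0 of 7 keepers (2 at an unadjusted p under 0.05), where 13.2% of all genes were called, 6.16% higher and 7.01% lower. In oocytes hyperovulation called 0 of 27 and 0 of 9, with 3 and 1 at an unadjusted p under 0.05 and 0.0299% of all genes called.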

How the data were processed

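Per the labels and the methods, the authors used Fastq-mcf for trimming, HISAT2 2.0.5 for alignment to GRCm38, and featureCounts 1.5.1 for counting on GENCODE genes. Reads mapped to several places were shared, so the deposited values are expected counts (36.8% and 35.1% of nonzero values in the sets were not whole). The design had assumed plain counts, and the expected counts were rounded for the tests. The authors also deposited RPKM, which recalculation matched for 100.0% of values in libraries without CR and 7.53% with CR. Reads carry no molecular identifiers, so intervals and floors cover counting error only.

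The 37 genes and the gene lists were chosen with earlier results of these data known. All 37 are accounted for, and those called in at least 1 comparison of age, diet or hyperovulation are given with values. Groups follow the labels. Libraries of 2 groups were compared in R 4.3.3 with edgeR 4.0.16 (TMM normalisation, quasi-likelihood F test, two-sided) for genes counted in 5 or more of them, with Benjamini-Hochberg adjustment over all genes and a threshold of 5%. Several libraries come from 1 mouse, so these p-values measure the spread between libraries, and counts summed per mouse were tested beside them. Overlap of mouse means was read for imprinted genes only and not counted over all genes, so it is a description and no test. SE is that of the log2 fold change. CPM of the imprinted genes are TMM-normalised, sums of marker genes are over the library total, and differences between cell types are oocytes minus cumulus cells. Alternatives were DESeq2 1.42.0, its size factors, no filter, limma 3.58.1 on log2(RPKM + 1) for CR, sums per mouse, each mouse left out, all deposited libraries, covariates and the complex as a block. The scripts were tested on simulated data, in which more than 5% of the calls of edgeR were false, so the adjusted p-values understate the share of false calls. One complex of a middle mouse (2 libraries) was left out, because its oocyte library correlated at 0.938 with the cumulus mean and at 0.75 with the oocyte mean.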

Additional observations from a re-analysis of the deposited data

Results flagged for a closer look

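The response to CR differed between oocytes and cumulus cells, by an interaction term of the edgeR fit over libraries, in Impact (1.06 on the log2 scale, oocytes minus cumulus cells), Nnat (-1.68) and Usp29 (-2.53). The response to hyperovulation differed in Asb4 (1.84), Peg10 (1.65), Ppp1r9a (0.75), Plagl1 (0.61) and Igf2r (-0.37). With counts summed per mouse, 0 of 36 terms were called for CR (5 at an unadjusted p under 0.05) and 0 of 36 for hyperovulation (8 at an unadjusted p under 0.05), and DESeq2 on libraries called 4 and 6. Over all genes tested, counts summed per mouse called 30 and 60, and DESeq2 called 4232 of 30659 and 1802 of 30006. DESeq2 did not call Usp29, and the terms of Usp29 and Nnat each lost their call without any 1 of 5 of the 7 mice, with TMM replaced by the size factors of DESeq2, without a filter and without the libraries high in luteal or cumulus markers. Without each mouse in turn the term of Nnat ran from -2.20 to -1.12, and that of Usp29 from -2.90 to -1.74. The terms of Peg10 and Ppp1r9a lost their calls without the mouse that gave 8 libraries and that of Igf2r without any 1 of 4 mice.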

How the results depend on the processing

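Libraries of 1 mouse are not independent, and with counts summed per mouse the number of imprinted genes called went from 16 to 6 for CR in oocytes, from 7 to 0 for CR in cumulus cells, from 11 to 3 for hyperovulation in cumulus cells, from 1 to 0 for young against old oocytes and from 4, 1, 3 and 2 to 0 for cumulus cells between young and old and between 2 and 4, 9 and 14 months. Over all genes tested, sums per mouse called 0 in young against old oocytes. In cumulus cells they called 81 between young and old mice and 0, 2 and 30 at 4, 9 and 14 months. Both interactions went to 0. DESeq2 called 3 in young against old oocytes, where it called 2808 of all 23100 genes tested. In cumulus cells it called 3 between young and middle mice (503 of all 22660) and 5 between 2 and 9 months (482 of all 23024). The cumulus marker share as a covariate left 0 in young against old oocytes, and 19 of all 23100 genes. All deposited libraries gave 1 in young against middle cumulus cells (292 of all 22744 genes), and no filter gave 1 between 2 and 14 months (341 of all 29735). Without the libraries high in luteal or cumulus markers, an alternative chosen after seeing the data, the interaction for CR kept 1 (3782 of all 30371). The cause of these shifts was not tested.

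With each mouse left out in turn, the counts ran in oocytes from 0 to 4 (young against old) and from 13 to 17 (CR), and were 0 throughout in the other 5 comparisons. Over all genes tested, calls in these fits ran from 0 to 4141 (young against old) and from 5853 to 7603 (CR), and reached at most 410 in the other 5. In cumulus cells the counts of imprinted genes ran from 0 to 4 (young against middle), 0 to 3 (young against old), 4 to 10 (CR), 0 to 1, 1 to 4 and 0 to 2 (2 months against 4, 9 and 14 months) and 7 to 12 (hyperovulation, 7 without the mouse with 8 libraries). Over all genes, in the same order, calls ran from 10 to 1145, 41 to 686 and 304 to 1267 in the first set. Those in the second set ran from 3 to 380, 157 to 743, 210 to 445 and 1516 to 3664. Between cell types the counts of imprinted genes ran from 26 to 32 in young mice and from 33 to 34 at 2 months, and the interactions from 1 to 5 (CR) and from 2 to 6 (hyperovulation). Over all genes, calls between cell types ran from 10169 to 20427 and from 21684 to 22730. Those of the interactions ran from 2609 to 3877 and from 511 to 1388. With the complex as a paired block, the cell types differed in 32 genes in young mice and 34 at 2 months. Of 1479 recomputed fold changes of called genes, 1325 kept direction and call, 154 lost the call and 0 reversed. Levels of CR libraries recalculated from the counts lay within 1 SD of the deposited RPKM for 74 of 74 values.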
